A study of Gallus gallus with 2 samples.

Results

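The axon guidance ligands and receptors are the genes of 4 signalling systems: the semaphorins (SEMA) with their plexin (PLXN) and neuropilin (NRP) receptors, the ephrins (EFN) with the Eph receptors, the Slits with the Robo receptors, and the netrins (NTN) with the UNC5 receptors. They were taken by the start of the gene symbol, with no use of measured values, and 59 of the 28951 genes in the deposited matrices matched: 18 semaphorins, 6 plexins, 2 neuropilins, 12 Eph receptors, 4 ephrins, 3 Robos, 3 Slits, 6 netrins or netrin-Gs, 4 UNC5 receptors, and UNC50, which has the letters of the UNC5 symbols but is a membrane protein of the secretory pathway and not a netrin receptor. By role, 31 are ligands and 27 are receptors or coreceptors. Together they held 22712 unique molecular identifiers (UMIs, each a counted RNA molecule), or 0.243% of the UMIs of the analysed nuclei.

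The study made single-nucleus RNA libraries from the thymus of female chickens 5 weeks old, and 2 libraries were analysed here as replicates of 1 group, with no treatment and no genetic change given in the labels. The labels do not say whether the libraries came from separate birds. With library as a block in the fit, the p-values below measure how far group differences varied between these 2 libraries. That spread was estimated over all groups together and may be technical. The comparisons are therefore between groups of nuclei within the libraries, with both library values given each time.

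Semaphorins are secreted, membrane-anchored or transmembrane proteins that act through plexins, and most of the secreted class also need a neuropilin as coreceptor. Ephrins sit on the cell surface and bind Eph receptor tyrosine kinases on a touching cell, so that signals can pass into both cells. Slits are secreted and bind Robo receptors, and netrins bind UNC5 receptors and DCC, mostly to repel or attract a moving cell or process. In the thymus, where developing T cells (thymocytes) move between a cortex and a medulla built by epithelial cells, members of these families are known in mammals for roles in thymocyte migration, adhesion and survival.

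After filtering, 10100 nuclei were kept, 4861 in library 1 and 5239 in library 2, with a median of 660 and 827 UMIs per nucleus. The libraries shared 13 cell barcodes as deposited and 10 after filtering. T-lineage nuclei made up 94.5% and 94.7% of them. The other classes with at least 20 nuclei in each library were thymic epithelial-like, macrophage-like, dendritic-like, B-like and erythroid-like nuclei, and a pair of clusters called by their leading genes: TTN ABCA12, in which 7 thymic epithelial markers were raised, and CHGA SST1, in which 6 were raised beside the neuroendocrine gene CHGA. Neither took a cell type name, since their 10 leading genes held no thymic epithelial marker and 1 marker of another list, the muscle gene TTN in the former and CHGA in the latter. Within the T lineage, the groups were DP-like (double positive, the resting stage of the cortex with RAG1 and CD4), CD4 SP-like (CD4 single positive), gamma delta-like and 7 groups called by leading genes: FSTL4 ASPM and CACNA1C AKR1D1, each with 7 cycling markers raised and the latter also with 3 early double negative markers, HIVEP3 EGR3 and NR4A3 SAMD11, each with 4 markers of strong selection signals raised, SH3RF3 CDK14 (with GNLY among its leading genes), HMCN1 CLGN and IQCH SLC7A10. In SH3RF3 CDK14 nuclei 5 CD4 SP markers and 4 NK or innate-like markers were raised, too close for a name. CACNA1C AKR1D1 nuclei had 2 CD4 SP markers raised beside the 3 early double negative ones, also too close. Levels are counts scaled to the total UMIs of the group in the library, in the usual unit CPM. Ratios and at-least folds come from UMI totals over both libraries, without the further scaling between groups used in the fitted log2 fold changes. A count of 0 allows up to 3 UMIs: this floor, which like the intervals below covers counting error only, was 5.39 CPM or less per library in DP-like nuclei but 198 CPM in erythroid-like nuclei of library 1. The groups were formed from the same nuclei in which the members were measured, with the members held out of the genes used for clustering.

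Of the 59 members, 47 had at least 20 UMIs and 35 passed the filter on low counts in at least 1 of the fits. The 12 members below 20 UMIs were UNC5A and ROBO3 with 1 UMI each, NTN4 with 2, SEMA3G and SEMA6B with 3 each, SEMA3B and NTN3 with 7 each, SEMA3E with 8, SEMA3A with 14, EPHA8 with 16, SLIT1 with 17 and NTN4L with 18. A further 12 members reached 20 UMIs but not the filter of either fit, with these UMIs in libraries 1 and 2: EPHA1 and SEMA3F 6 and 14 each, EPHB1 10 and 10, EPHB3 7 and 16, UNC5D 14 and 10, NTN1 8 and 17, EPHA6 15 and 13, SEMA6C 9 and 22, SLIT2 1 and 36, EPHA2 27 and 20, SEMA4C 26 and 35 and SEMA6D 45 and 47. The diffusible netrins were thus at the limit of detection, and among the Slits SLIT3 alone passed the filter. A member could pass through a single group where it is high, so counts over the members that passed describe those members and not the families.

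Among the groups of thymocytes, 19 members were tested and 16 differed (edgeR quasi-likelihood F test over all groups, Benjamini-Hochberg adjustment over all genes tested), beside 42.6% of the 6944 genes tested. All 8 receptors tested and 7 of 10 ligands tested were among them. The ligands that did not pass were EFNA2, SEMA4B and SEMA4D. The variable genes used for clustering were left out of the genes tested, but no member was. Here and below, the members and all genes are thus not like sets, and a gap between their shares or medians is not a test.

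**Figure D1:**
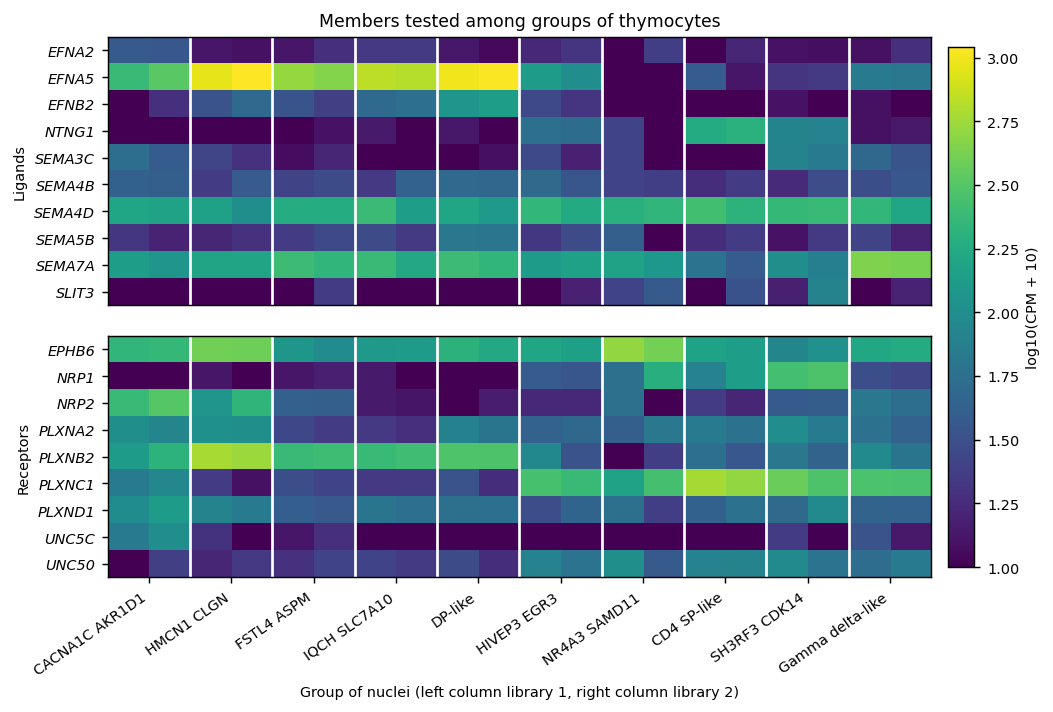
Level of the 19 tested members in each group of thymocytes, as log10 of CPM plus 10, with the left column of each pair for library 1 and the right for library 2. Ligands are above and receptors (with UNC50) below. EFNA5 and PLXNB2 are bright from HMCN1 CLGN to DP-like nuclei and darker to the right, where PLXNC1 is bright; SEMA4D changes little across the groups.

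The ephrin ligand EFNA5 (ENSGALG00010010266, chromosome Z, 48721421 to 48928978 in GRCg7b) varied widely between the groups. EFNA5 is a lipid-anchored ephrin, known in the chick as a repellent for retinal axons, and binds EphA receptors. Its level was 990.2 and 1061 CPM in DP-like nuclei of libraries 1 and 2 and 919 and 1088 CPM in HMCN1 CLGN nuclei, a difference that missed the threshold (log2 fold change -0.17 ± 0.20, edgeR adjusted p = 0.61). It was lower in both groups with cycling markers and in IQCH SLC7A10 nuclei, whose leading genes include MCM2 and SLBP of DNA replication. The level was 675 and 640.3 CPM in IQCH SLC7A10 (log2 fold change -0.91 ± 0.20, edgeR adjusted p = 0.0062). The level was 509 and 447 CPM in FSTL4 ASPM (log2 fold change -1.31 ± 0.20, edgeR adjusted p = 7.4e-05). It was 227 and 318 CPM in CACNA1C AKR1D1 (log2 fold change -2.17 ± 0.22, edgeR adjusted p = 8.6e-07). In HIVEP3 EGR3 nuclei 121 and 89.3 CPM were left (log2 fold change -3.56 ± 0.24, edgeR adjusted p = 3.3e-08), and in gamma delta-like nuclei 59.8 and 55.8 CPM (log2 fold change -4.41 ± 0.26, edgeR adjusted p = 2.4e-09). CD4 SP-like nuclei had 29.2 and 3.25 CPM (log2 fold change -6.32 ± 0.36, edgeR adjusted p = 1.8e-09). SH3RF3 CDK14 nuclei had 10.2 and 12.1 CPM (log2 fold change -6.75 ± 0.34, edgeR adjusted p = 1.9e-10). No EFNA5 UMI was counted in NR4A3 SAMD11 nuclei, which put that group at least 46.7-fold lower than DP-like nuclei against a floor of 3 UMIs over both libraries (edgeR adjusted p = 7e-08). DP-like and HMCN1 CLGN nuclei were thus the high groups in both libraries, and no library value of any other group reached theirs.

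EFNB2 (ENSGALG00010015042, chromosome 1, 141090399 to 141134812), a transmembrane ephrin that binds EphB receptors and EPHA4, was more narrowly placed. DP-like nuclei had 108 and 129.7 CPM, IQCH SLC7A10 nuclei 39.7 and 45.7 CPM and HMCN1 CLGN nuclei 23.0 and 40.1 CPM. The last fell below DP-like nuclei (log2 fold change -2.01 ± 0.60, edgeR adjusted p = 0.026), where EFNA5 gave no call, and the IQCH SLC7A10 value missed the threshold (log2 fold change -1.73 ± 0.60, edgeR adjusted p = 0.067). It was lower in FSTL4 ASPM nuclei at 24.1 and 14.3 CPM (log2 fold change -2.83 ± 0.60, edgeR adjusted p = 0.0019) and in HIVEP3 EGR3 nuclei at 18.2 and 10.7 CPM (log2 fold change -3.30 ± 0.64, edgeR adjusted p = 0.0014). With 0 and 3 UMIs in CACNA1C AKR1D1 nuclei, 1 and 0 UMIs in SH3RF3 CDK14 and 1 and 0 UMIs in gamma delta-like nuclei, the ratios to DP-like nuclei were 0.0469, 0.00927 and 0.00846. The upper 95% counting bounds were 0.139, 0.0523 and 0.0477 (edgeR adjusted p = 0.0003, 4.1e-05 and 3.3e-05). CD4 SP-like nuclei had no EFNB2 UMI and were at least 22.2-fold lower (edgeR adjusted p = 8.6e-05). NR4A3 SAMD11 nuclei had none either (at least 5.49-fold lower, edgeR adjusted p = 0.0032). DP-like nuclei were the highest group for EFNB2 in both libraries. The HMCN1 CLGN call was lost without the library block and with at least 400 genes per nucleus (edgeR adjusted p = 0.059 and 0.145). EFNA2, another lipid-anchored ephrin, was near the floor, with 5 and 9 UMIs in CACNA1C AKR1D1 nuclei against 2 and 1 UMIs in DP-like nuclei (ratio 13.2, 95% counting interval 3.69 to 71.7, edgeR adjusted p = 0.033), a call that DESeq2 did not make (adjusted p = 0.08).

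Beside these ligands, the Eph receptor that passed the filter in thymocytes was EPHB6 (ENSGALG00010023182, chromosome 1, 77946671 to 78020387), which lacks kinase activity and is known from mouse and human T cells. It was present in every group, with 196 and 162 CPM in DP-like nuclei. HMCN1 CLGN nuclei had 392 and 378 CPM (log2 fold change 0.97 ± 0.19, edgeR adjusted p = 0.0011). NR4A3 SAMD11 nuclei had 502 and 404 CPM (log2 fold change 1.04 ± 0.23, edgeR adjusted p = 0.003). These were the highest groups in both libraries, and of them HMCN1 CLGN was also high for EFNA5 while NR4A3 SAMD11 had no EFNA5 UMI. The NR4A3 SAMD11 values rest on 32 and 29 UMIs, of which 8 in library 2 came from 1 nucleus, and the call was lost when at most 3 UMIs of a gene were counted per nucleus (edgeR adjusted p = 0.066). Lower levels were found in FSTL4 ASPM nuclei at 111 and 87.3 CPM (log2 fold change -1.06 ± 0.20, edgeR adjusted p = 0.00052), in SH3RF3 CDK14 nuclei at 76.6 and 98.7 CPM (log2 fold change -1.28 ± 0.21, edgeR adjusted p = 0.00016) and in IQCH SLC7A10 nuclei at 115 and 122 CPM (log2 fold change -0.84 ± 0.22, edgeR adjusted p = 0.014). CD4 SP-like nuclei at 142 and 127 CPM and HIVEP3 EGR3 nuclei at 148 and 134 CPM were lower by smaller steps (log2 fold change -0.63 ± 0.22, edgeR adjusted p = 0.038, and log2 fold change -0.60 ± 0.20, edgeR adjusted p = 0.039). Both of these calls were lost without the filter on low counts (edgeR adjusted p = 0.12 and 0.18). They were also lost with at least 400 genes per nucleus (edgeR adjusted p = 0.27 and 0.054). In CACNA1C AKR1D1 nuclei (210.3 and 220.0 CPM) and gamma delta-like nuclei (159 and 169 CPM) no difference from DP-like nuclei passed the test. The EphA receptors were near 0 in the T lineage: EPHA3, EPHA4 and EPHA7 had 4 and 2 UMIs, 1 and 0 UMIs and 0 and 2 UMIs over all T-lineage nuclei, and EPHA5 had 12 and 8 UMIs.

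**Figure D2:**
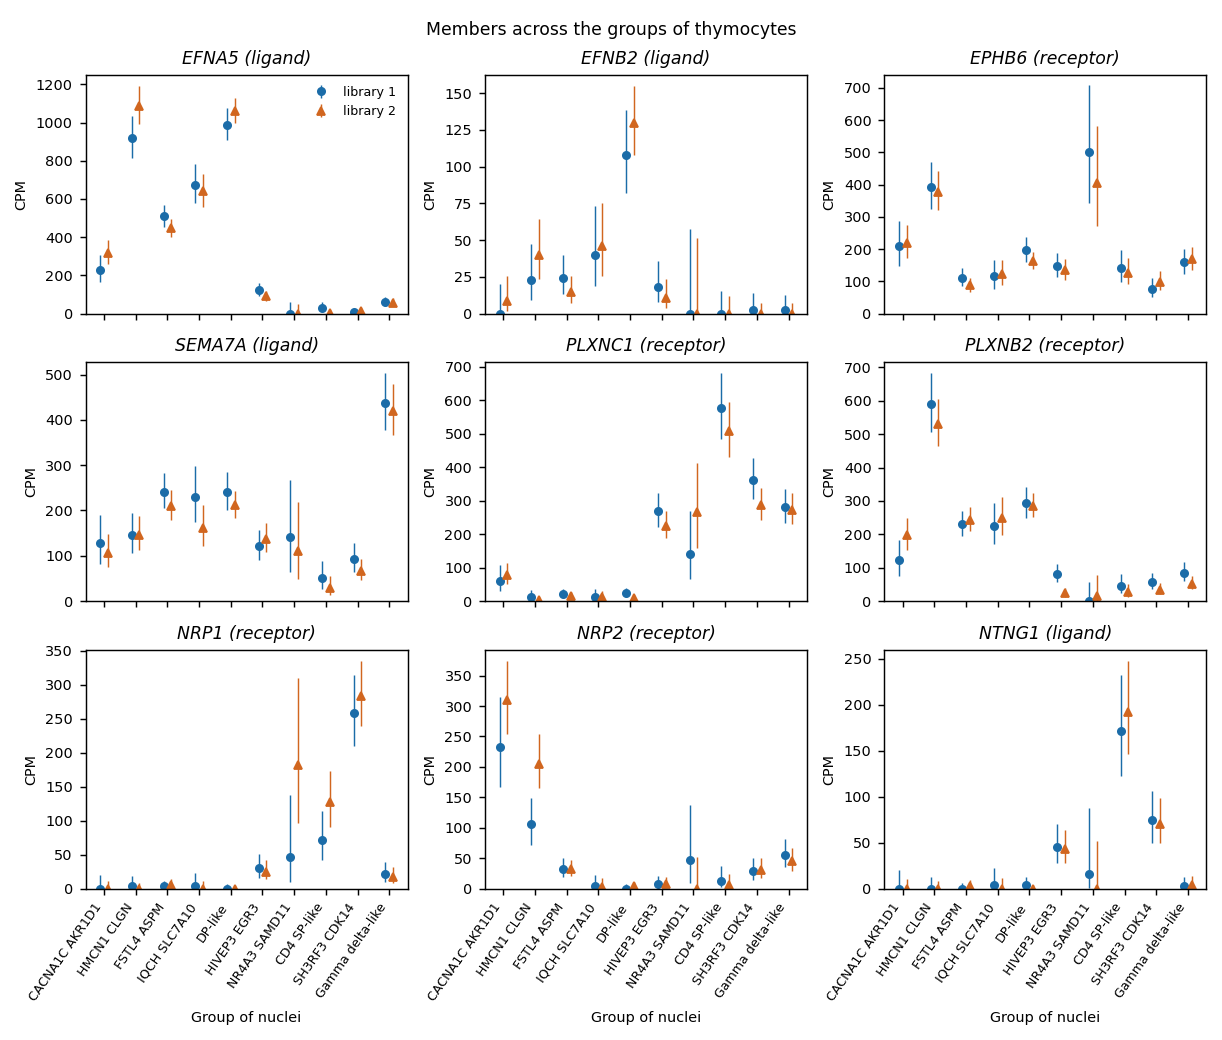
Level of 9 members in the 10 groups of thymocytes, in CPM on linear axes that start at 0 and differ between panels; circles are library 1, triangles library 2, and bars are exact 95% Poisson intervals, which cover counting error only. EFNA5 is high in DP-like and HMCN1 CLGN nuclei. EFNB2 peaks in DP-like nuclei, SEMA7A in gamma delta-like, PLXNC1 and NTNG1 in CD4 SP-like, NRP1 in SH3RF3 CDK14 and NRP2 in CACNA1C AKR1D1 nuclei.

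Among the semaphorins, SEMA7A (ENSGALG00010021187, chromosome 10, 2548353 to 2582471), a lipid-anchored semaphorin that binds PLXNC1 and beta 1 integrins, was highest in gamma delta-like nuclei. Its level there was 437 and 420.5 CPM against 241 and 211 CPM in DP-like nuclei (log2 fold change 0.66 ± 0.19, edgeR adjusted p = 0.01). FSTL4 ASPM nuclei (241 and 209.7 CPM) and IQCH SLC7A10 nuclei (230.2 and 162 CPM) gave no call against DP-like nuclei. The lowest group was CD4 SP-like at 50.1 and 29.3 CPM (log2 fold change -2.76 ± 0.27, edgeR adjusted p = 5.1e-07), followed by SH3RF3 CDK14 at 92.0 and 66.5 CPM (log2 fold change -1.80 ± 0.22, edgeR adjusted p = 5.6e-06). CACNA1C AKR1D1 (127 and 107 CPM), NR4A3 SAMD11 (141 and 112 CPM), HIVEP3 EGR3 (121 and 138 CPM) and HMCN1 CLGN (145 and 146 CPM) lay between them, each below DP-like nuclei with adjusted p-values from 0.00025 to 0.014 by edgeR. With at least 400 genes per nucleus the HMCN1 CLGN and NR4A3 SAMD11 calls were lost (edgeR adjusted p = 0.22 and 0.064). The gamma delta-like call was lost without the filter on low counts (edgeR adjusted p = 0.054). Gamma delta-like nuclei and CD4 SP-like nuclei, both outside the DP-like stage, were thus at opposite ends of the range of SEMA7A.

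Its receptor PLXNC1 (ENSGALG00010010512, chromosome 1, 45115102 to 45184717) was low in DP-like nuclei at 23.4 and 8.58 CPM. The level was 576 and 507 CPM in CD4 SP-like nuclei (log2 fold change 4.96 ± 0.34, edgeR adjusted p = 7.1e-09). It was 363 and 288 CPM in SH3RF3 CDK14 (log2 fold change 4.17 ± 0.34, edgeR adjusted p = 5.2e-08). The level was 280.4 and 273 CPM in gamma delta-like nuclei (log2 fold change 3.96 ± 0.34, edgeR adjusted p = 9.7e-08). HIVEP3 EGR3 nuclei had 269 and 225 CPM (log2 fold change 3.79 ± 0.35, edgeR adjusted p = 4.9e-07). NR4A3 SAMD11 nuclei had 141 and 265 CPM (log2 fold change 3.50 ± 0.47, edgeR adjusted p = 3.3e-05). CACNA1C AKR1D1 nuclei had 60.9 and 78.1 CPM (log2 fold change 2.00 ± 0.43, edgeR adjusted p = 0.0014). HMCN1 CLGN (13.2 and 2.36 CPM), IQCH SLC7A10 (11.9 and 12.2 CPM) and FSTL4 ASPM nuclei (20.9 and 15.6 CPM) gave no call. Ligand and receptor were both high in gamma delta-like nuclei, while in CD4 SP-like nuclei PLXNC1 was at its highest and SEMA7A at its lowest. Over the 10 groups the Spearman rank correlation of their mean levels was -0.50, a description over groups that share the same libraries. PLXNC1 is also a gene of macrophages, and the summed level of the 12 listed macrophage markers in CD4 SP-like nuclei was 25.0 and 6.51 CPM, with CSF1R and MARCO at 0. The part of these markers in the PLXNC1 level was not tested.

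PLXNB2 (ENSGALG00010001220, chromosome 1, 20674694 to 20925719), a receptor for class 4 semaphorins, went the other way. It was highest in HMCN1 CLGN nuclei at 589 and 531 CPM against 293 and 286 CPM in DP-like nuclei, a step that missed the threshold (log2 fold change 0.80 ± 0.29, edgeR adjusted p = 0.056). IQCH SLC7A10 (226 and 250.0 CPM) and FSTL4 ASPM nuclei (230.2 and 244 CPM) gave no call either. The level fell to 122 and 197 CPM in CACNA1C AKR1D1 (log2 fold change -1.08 ± 0.33, edgeR adjusted p = 0.014). It was 85.0 and 52.1 CPM in gamma delta-like (log2 fold change -2.37 ± 0.34, edgeR adjusted p = 3.3e-05). It was 79.7 and 23.2 CPM in HIVEP3 EGR3 nuclei (log2 fold change -2.82 ± 0.35, edgeR adjusted p = 1.7e-05). It was 56.2 and 34.2 CPM in SH3RF3 CDK14 (log2 fold change -2.98 ± 0.37, edgeR adjusted p = 6.8e-06). The level was 45.9 and 26.0 CPM in CD4 SP-like nuclei (log2 fold change -3.27 ± 0.42, edgeR adjusted p = 1.3e-05). NR4A3 SAMD11 nuclei held 0 and 1 UMIs (ratio 0.0256, 95% counting interval 0.000646 to 0.143, edgeR adjusted p = 0.00016). The rank order of PLXNB2 over the 10 groups followed that of EFNA5 (Spearman 0.96) and was opposite to those of PLXNC1 (Spearman -0.85) and of SEMA4D, a class 4 semaphorin (Spearman -0.92), again as descriptions over groups of the same libraries. SEMA4D itself did not pass the test over all groups, and its group order had a Spearman correlation of 0.55 between the libraries. The other class 4 semaphorin tested, SEMA4B, had a rank correlation of the other sign with PLXNB2 (Spearman 0.53). The pairs named were picked from all pairs of tested members.

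SEMA4D (ENSGALG00010009199, chromosome Z, 44198741 to 44299430), known as CD100 on lymphocytes, lay between 94.4 and 255 CPM in all groups and both libraries, with 147 and 114 CPM in DP-like and 255 and 198 CPM in CD4 SP-like nuclei. No difference passed over all groups (edgeR adjusted p = 0.083), and the largest contrast with DP-like nuclei was that of CD4 SP-like nuclei (log2 fold change 0.57 ± 0.23, edgeR adjusted p = 0.074). SEMA4B had 39.5 and 37.5 CPM in DP-like nuclei. It was lower in CD4 SP-like at 8.35 and 13.0 CPM (log2 fold change -2.05 ± 0.68, edgeR adjusted p = 0.033) and SH3RF3 CDK14 nuclei at 7.66 and 20.1 CPM (log2 fold change -1.74 ± 0.60, edgeR adjusted p = 0.036). It did not pass the test over all groups (edgeR adjusted p = 0.2). Both contrasts lost their calls without the library block (edgeR adjusted p = 0.0502 and 0.062). SEMA4C, with 24 and 31 UMIs over all T-lineage nuclei, was too sparse to test.

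SEMA5B (ENSGALG00010018458, chromosome 7, 26164391 to 26416599), a transmembrane semaphorin with thrombospondin repeats, was highest in DP-like nuclei at 55.7 and 53.6 CPM. All other groups lay at or below 31.4 CPM in both libraries, and 6 of the 9 contrasts passed. CD4 SP-like nuclei had 8.35 and 13.0 CPM (log2 fold change -2.53 ± 0.82, edgeR adjusted p = 0.03). Gamma delta-like nuclei had 16.1 and 5.58 CPM (log2 fold change -2.60 ± 0.77, edgeR adjusted p = 0.014). SH3RF3 CDK14 nuclei had 2.55 and 12.1 CPM (log2 fold change -3.07 ± 0.80, edgeR adjusted p = 0.0072). Unlike EFNA5 and PLXNB2, it was also low in HMCN1 CLGN nuclei at 6.58 and 9.44 CPM (log2 fold change -2.84 ± 0.82, edgeR adjusted p = 0.02). It was low in CACNA1C AKR1D1 at 11.1 and 5.79 CPM and FSTL4 ASPM at 12.9 and 18.2 CPM (edgeR adjusted p = 0.011 and 0.041, the latter 0.074 without the library block). HIVEP3 EGR3, IQCH SLC7A10 and NR4A3 SAMD11 nuclei gave no call. Calls for HMCN1 CLGN and CD4 SP-like nuclei were lost with at least 400 genes per nucleus (edgeR adjusted p = 0.074 and 0.093). So were those for gamma delta-like and FSTL4 ASPM nuclei (edgeR adjusted p = 0.065 and 0.14). The group order of SEMA5B had a Spearman correlation of 0.09 between the libraries.

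The secreted SEMA3C, a ligand of neuropilins with PLXND1 or class A plexins, was found in other groups. SH3RF3 CDK14 nuclei had 71.5 and 60.4 CPM, CACNA1C AKR1D1 nuclei 44.3 and 28.9 CPM and gamma delta-like nuclei 39.1 and 24.2 CPM, while DP-like nuclei held 0 and 2 UMIs. The ratios were 48.6 (95% counting interval 12.9 to 411), 25.5 (6.10 to 226) and 23.0 (5.83 to 198), with edgeR adjusted p-values of 0.0012, 0.0054 and 0.007. CD4 SP-like nuclei had no SEMA3C UMI.

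The neuropilins were almost absent from DP-like nuclei and high in different groups. NRP1 (ENSGALG00010005629, chromosome 2, 13814687 to 13923975), known in mice as a marker of thymus-derived regulatory T cells and recent emigrants, had no UMI in DP-like nuclei. SH3RF3 CDK14 nuclei had 258 and 284 CPM (at least 135-fold higher, edgeR adjusted p = 7.7e-07). CD4 SP-like nuclei had 71.0 and 127 CPM (at least 50.8-fold higher, edgeR adjusted p = 1.3e-05). NR4A3 SAMD11 nuclei had 47.1 and 181 CPM (at least 58.6-fold higher, edgeR adjusted p = 5.1e-05). HIVEP3 EGR3 (29.6 and 25.0 CPM) and gamma delta-like nuclei (20.7 and 16.7 CPM) were at least 13.4-fold higher and at least 9.19-fold higher, with edgeR adjusted p = 0.00071 and 0.0015. In NR4A3 SAMD11 nuclei of library 2, 6 of 13 UMIs came from 1 nucleus. CACNA1C AKR1D1 nuclei had no NRP1 UMI, and FSTL4 ASPM, HMCN1 CLGN and IQCH SLC7A10 nuclei held 2 and 4 UMIs, 1 and 0 UMIs and 1 and 0 UMIs. The NK or innate-like marker sum was also highest in SH3RF3 CDK14 nuclei, at 383 and 654 CPM with 5 and 6 of 8 listed markers found, against 66.8 and 81.3 CPM in CD4 SP-like nuclei, and its part in the NRP1 level was not tested. CD4 SP markers were raised in SH3RF3 CDK14 nuclei as well, 5 beside 4 of the NK or innate-like list.

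NRP2 (ENSGALG00010026008, chromosome 7, 12280312 to 12361472), the coreceptor of SEMA3C and SEMA3F, was highest in CACNA1C AKR1D1 nuclei at 232 and 309.7 CPM against 0 and 4.29 CPM in DP-like nuclei (log2 fold change 6.29 ± 0.65, edgeR adjusted p = 6.4e-07), a group in which NRP1 had no UMI. HMCN1 CLGN nuclei followed at 105 and 205 CPM (log2 fold change 5.64 ± 0.66, edgeR adjusted p = 8.5e-06), then gamma delta-like at 55.2 and 44.7 CPM (log2 fold change 3.89 ± 0.71, edgeR adjusted p = 0.00036), FSTL4 ASPM at 32.2 and 31.3 CPM (log2 fold change 3.29 ± 0.72, edgeR adjusted p = 0.0019) and SH3RF3 CDK14 at 28.1 and 30.2 CPM (log2 fold change 3.10 ± 0.76, edgeR adjusted p = 0.0046). IQCH SLC7A10, HIVEP3 EGR3 and CD4 SP-like nuclei had 3.97 and 3.05 CPM, 6.83 and 7.15 CPM and 12.5 and 6.51 CPM and gave no call. NR4A3 SAMD11 nuclei held 3 and 0 UMIs. In both libraries NRP2 was thus highest in CACNA1C AKR1D1 nuclei, and NRP1 in SH3RF3 CDK14 nuclei.

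The plexins that work with neuropilins varied less. PLXNA2 had 68.3 and 52.5 CPM in DP-like nuclei and 95.5 and 94.4 CPM in HMCN1 CLGN nuclei. It was lower in IQCH SLC7A10 at 11.9 and 9.15 CPM (log2 fold change -2.75 ± 0.49, edgeR adjusted p = 0.00087) and FSTL4 ASPM nuclei at 17.7 and 13.0 CPM (log2 fold change -2.16 ± 0.39, edgeR adjusted p = 0.00035). Both calls were lost with at least 400 genes per nucleus (edgeR adjusted p = 0.14 and 0.15). CACNA1C AKR1D1 nuclei, which also had cycling markers raised, had 94.1 and 75.2 CPM. The remaining groups lay between 31.4 and 94.1 CPM and gave no call. PLXND1, which in mice guides thymocytes from cortex to medulla in response to SEMA3E, differed over all groups (edgeR adjusted p = 0.024). It was highest in CACNA1C AKR1D1 nuclei of both libraries, at 88.5 and 122 CPM, and had 20.5 and 35.7 CPM in HIVEP3 EGR3 and 30.6 and 27.3 CPM in FSTL4 ASPM nuclei. No group gave a call against the 46.7 and 46.1 CPM of DP-like nuclei. Its ligand SEMA3E had 8 UMIs in all analysed nuclei.

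In the netrin family, NTNG1 (ENSGALG00010011886, chromosome 8, 831336 to 976605), a lipid-anchored netrin-G that binds the adhesion protein LRRC4C and not the classical netrin receptors, was highest in CD4 SP-like nuclei. Its level was 171 and 192 CPM in CD4 SP-like nuclei, 74.1 and 70.5 CPM in SH3RF3 CDK14 and 45.6 and 42.9 CPM in HIVEP3 EGR3 nuclei, against 2 and 0 UMIs in DP-like nuclei. The ratios were 136, 53.7 and 32.8, with lower 95% counting bounds of 36.7, 14.3 and 8.56. The fitted log2 fold changes were 6.55, 5.16 and 4.48 (edgeR adjusted p = 3.7e-05, 0.00036 and 0.0021). Gamma delta-like nuclei held 1 and 2 UMIs, so NTNG1 and PLXNC1 differed there although both were high in CD4 SP-like nuclei. Of the netrin receptors, UNC5C was found in CACNA1C AKR1D1 nuclei at 60.9 and 89.7 CPM with no UMI in DP-like nuclei (at least 39.6-fold higher, edgeR adjusted p = 0.0043, but 0.2 by DESeq2). The 10 and 2 UMIs of gamma delta-like nuclei gave no call. UNC50, counted by its letters alone, rose from 19.8 and 8.58 CPM in DP-like to 71.0 and 71.6 CPM in CD4 SP-like (log2 fold change 2.17 ± 0.62, edgeR adjusted p = 0.016). It was 84.3 and 50.3 CPM in SH3RF3 CDK14 (log2 fold change 2.00 ± 0.61, edgeR adjusted p = 0.017). It was 70.6 and 50.03 CPM in HIVEP3 EGR3 (log2 fold change 1.88 ± 0.61, edgeR adjusted p = 0.034). The level was 43.7 and 59.5 CPM in gamma delta-like nuclei (log2 fold change 1.68 ± 0.61, edgeR adjusted p = 0.043). The last and the HIVEP3 EGR3 call were lost without the library block (edgeR adjusted p = 0.075 and 0.063).

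SLIT3 was called in SH3RF3 CDK14, CD4 SP-like and NR4A3 SAMD11 nuclei, but most of its UMIs lay in library 2. SH3RF3 CDK14 nuclei held 2 and 36 UMIs, CD4 SP-like 0 and 7 UMIs and NR4A3 SAMD11 1 and 2 UMIs, with none in DP-like nuclei. The first was at least 21.2-fold higher over both libraries (edgeR adjusted p = 0.006), the second at least 6.35-fold higher (edgeR adjusted p = 0.041). The third had no more than the 3 UMIs of the floor and is given no fold (edgeR adjusted p = 0.031). In library 1 alone no direction could be given for SH3RF3 CDK14 or CD4 SP-like nuclei, and without the library block all 3 calls were lost (edgeR adjusted p = 0.058, 0.17 and 0.15). Over all T-lineage nuclei SLIT3 had 3 and 61 UMIs, whereas PLXNB3 had 20 and 0 UMIs, UNC5B 19 and 0 UMIs and PLXNA4 25 and 3 UMIs. Low counts of these genes thus differed between the libraries in both directions. Thymic epithelial markers in SH3RF3 CDK14 nuclei were near 0, with 8 UMIs in all, 1 and 2 of 14 listed markers found in libraries 1 and 2, a summed level of 12.8 and 6.04 CPM, and EPCAM, PAX1 and TP63 at 0. Their part in the SLIT3 level was not tested.

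By group, the members called against DP-like nuclei, out of 19 tested, were as follows. SH3RF3 CDK14 nuclei had 7 higher and 7 lower, beside 19.9% and 10.3% of all genes tested. CD4 SP-like nuclei had 5 higher and 7 lower (16% and 9.42% of all genes), and gamma delta-like nuclei 6 and 4 (21% and 10.5%). The groups with selection markers followed, HIVEP3 EGR3 with 4 higher and 5 lower (13.5% and 7.24%) and NR4A3 SAMD11 with 4 and 4 (11.7% and 9.45%). CACNA1C AKR1D1 nuclei had 5 and 5 (21% and 14%), HMCN1 CLGN 2 and 3 (13.3% and 6.02%), FSTL4 ASPM 1 and 5 (18.8% and 10.3%), and IQCH SLC7A10 0 and 3 (9.82% and 3.76%). The median log2 fold change of the tested members was -0.39 in CD4 SP-like nuclei beside 0.09 over all genes, with -0.39 when members at 0 UMIs were set to their bound. In gamma delta-like nuclei it was 0.66 beside 0.19 over all genes, and 0.22 at the bounds. In NR4A3 SAMD11 nuclei the fitted median of 0.32 and the median at the bounds of -0.83 differed in sign, as did those of HMCN1 CLGN nuclei (0.09 and -0.24). In HIVEP3 EGR3 nuclei they were -0.06 and -0.46. Members with no fold were left out of the medians at the bounds. With at least 400 genes per nucleus IQCH SLC7A10 nuclei kept none of their 3 calls (edgeR adjusted p = 0.057 for EFNA5, 0.2 for EPHB6 and 0.14 for PLXNA2), and 15 other calls, of them 4 of SEMA5B, were lost as well.

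Among the classes of nuclei, 30 members were tested and all 30 differed over the 8 classes (edgeR quasi-likelihood F test, adjusted over all genes), beside 64% of the 2588 genes tested. Since the classes other than the T lineage were small, a member had to be high in 1 of them or abundant in the T lineage to pass the filter at all. The calls against the T lineage were mostly in the classes with epithelial markers, which also had the most calls over all genes tested. There were 19 members higher and 3 lower in thymic epithelial-like nuclei (53.4% of all genes in either direction, 28.5% and 24.9% of all genes), 18 and 3 in TTN ABCA12 (28.9% and 21.9%), and 22 and 2 in CHGA SST1 nuclei (22.6% and 8.69%). The median log2 fold change of the tested members was 4.71, 3.95 and 4.55 in these classes, beside -0.12, -0.08 and -0.01 over all genes. These values stayed when members at 0 UMIs were set to their bound. Members such as SEMA5A, with no T-lineage UMI, passed the filter only through classes where they are high. The genes used for clustering are also missing from all genes, so the gap between the medians was in part set beforehand.

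**Figure D3:**
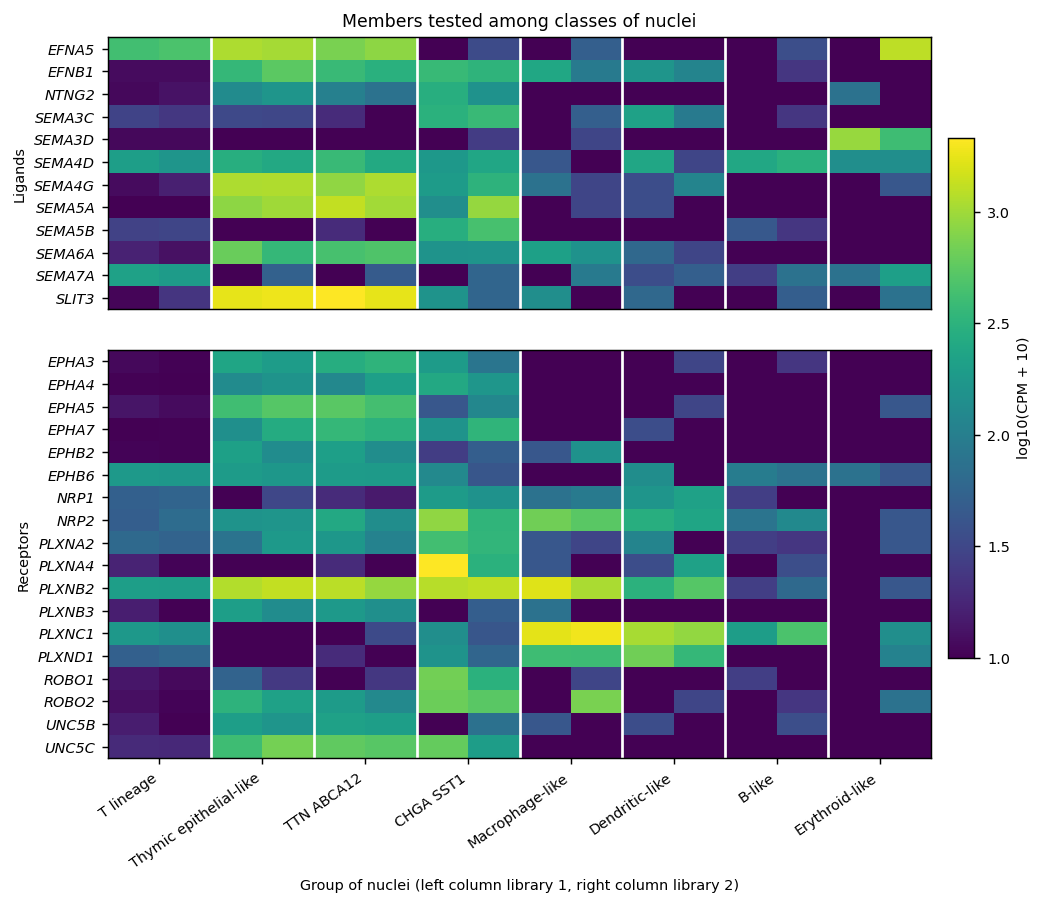
Level of the 30 tested members in each class, as log10 of CPM plus 10, with library 1 left and library 2 right in each pair; ligands are above and receptors below. SLIT3, SEMA4G and SEMA5A are bright in thymic epithelial-like and TTN ABCA12 nuclei, PLXNC1 in macrophage-like and dendritic-like nuclei, PLXNA4 in CHGA SST1 and SEMA3D in erythroid-like nuclei.

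SLIT3 (ENSGALG00010010909, chromosome 13, 3792458 to 4318754), a secreted ligand of Robo receptors, reached 1729.9 and 1876 CPM in thymic epithelial-like and 2134 and 1757 CPM in TTN ABCA12 nuclei, against 0.860 and 12.8 CPM in the T lineage (log2 fold change 8.05 ± 0.68, edgeR adjusted p = 8.5e-10, and log2 fold change 8.29 ± 0.68, edgeR adjusted p = 6e-10). CHGA SST1 nuclei had 148 and 47.6 CPM (log2 fold change 3.82 ± 0.96, edgeR adjusted p = 0.0031), below thymic epithelial-like and TTN ABCA12 nuclei in both libraries. SLIT2 was sparse, with 0 and 15 UMIs in TTN ABCA12 nuclei, all 15 from 1 nucleus. Of the Robo receptors, ROBO2 had 625 and 531 CPM in CHGA SST1 nuclei (log2 fold change 8.67 ± 0.85, edgeR adjusted p = 3e-08). It was 315 and 205 CPM in thymic epithelial-like (log2 fold change 7.29 ± 0.84, edgeR adjusted p = 1.4e-07). It was 179 and 116 CPM in TTN ABCA12 nuclei (log2 fold change 6.57 ± 0.85, edgeR adjusted p = 7.4e-07), with 2.58 and 0.628 CPM in the T lineage. ROBO1 was almost limited to CHGA SST1 nuclei at 675 and 301 CPM (log2 fold change 7.73 ± 0.95, edgeR adjusted p = 1.3e-06), with 4 and 2 UMIs in thymic epithelial-like (log2 fold change 3.42 ± 1.10, edgeR adjusted p = 0.012) and 0 and 3 UMIs in TTN ABCA12 nuclei, which gave no call. The thymic epithelial-like call of ROBO1 was lost without the filter on low counts (edgeR adjusted p = 0.11). ROBO2 was also called in macrophage-like nuclei, where library 1 had no UMI and library 2 had 35 from 8 of 39 nuclei (edgeR adjusted p = 1.4e-06). That call rests on library 2 alone, and library 1 gives no direction. Epithelial markers summed to 830.4 and 697 CPM in macrophage-like nuclei, with 3 and 2 of 14 found, nearly all TP63, and with EPCAM, FOXN1 and PAX1 at 0 in both libraries. Their part in the ROBO2 level was not tested.

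**Figure D4:**
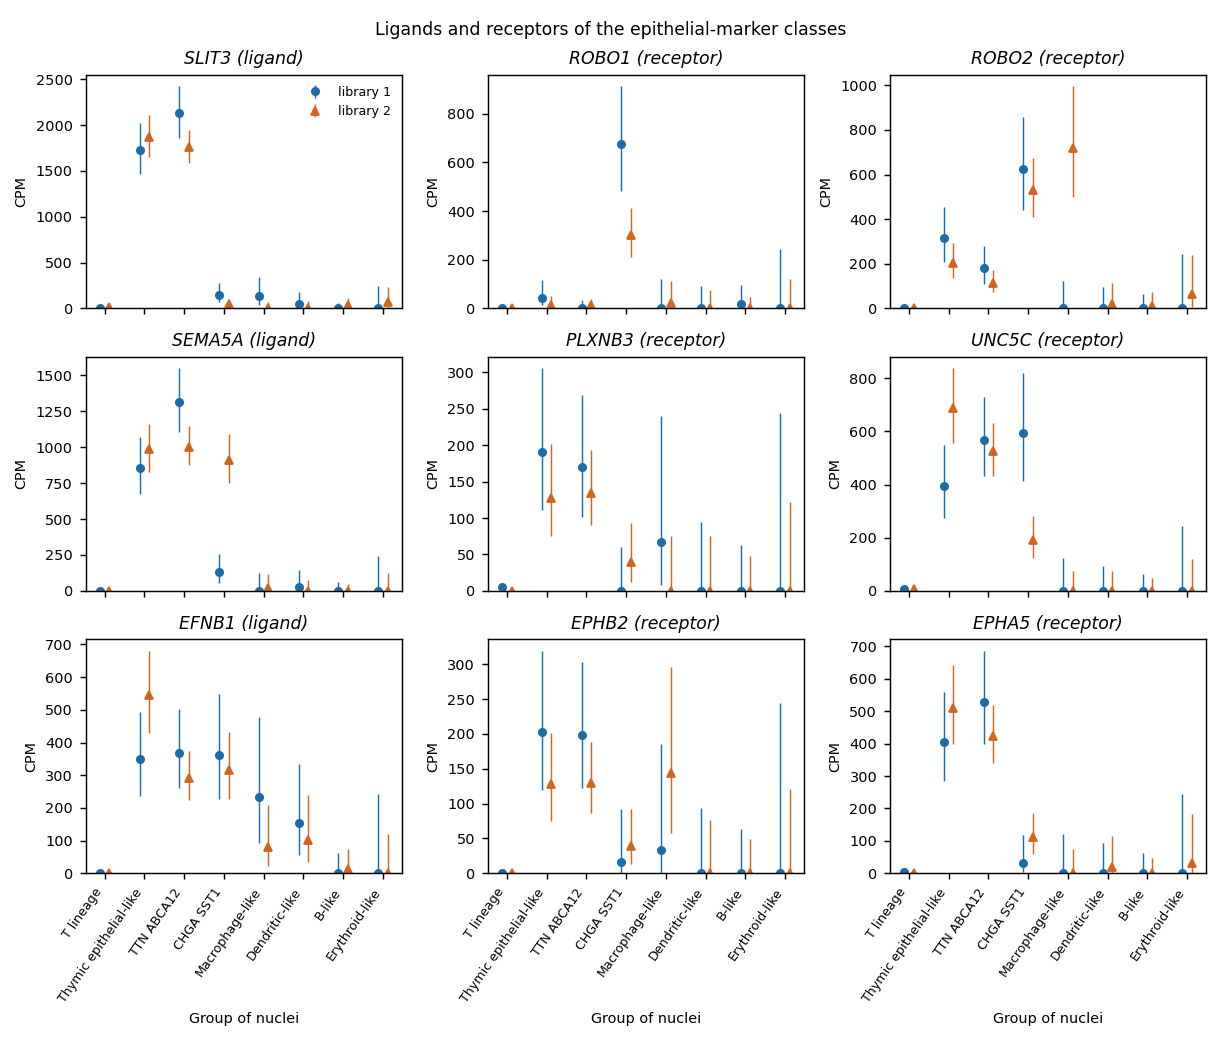
Level of 9 members in the 8 classes, in CPM on linear axes that start at 0 and differ between panels; circles are library 1, triangles library 2, and bars are exact 95% Poisson intervals, which cover counting error only. SLIT3, SEMA5A, EFNB1 and EPHA5 are high in thymic epithelial-like and TTN ABCA12 nuclei and near 0 in the T lineage; ROBO1 is high in CHGA SST1 nuclei.

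The semaphorins higher in thymic epithelial-like and TTN ABCA12 nuclei were SEMA5A, SEMA4G and SEMA6A, all transmembrane proteins. SEMA5A had no UMI in 9555 T-lineage nuclei, which allows up to 0.363 CPM by counting error alone. That floor, and the folds taken from it, do not cover counts that the removal of free RNA may have set to 0. It had 854 and 984 CPM in thymic epithelial-like (at least 2573-fold higher, edgeR adjusted p = 9.9e-11). The level was 1312 and 1004 CPM in TTN ABCA12 nuclei (at least 3046-fold higher, edgeR adjusted p = 6.3e-11). In CHGA SST1 nuclei it was 132 and 912 CPM, and 71 of the 115 UMIs of library 2 came from 1 nucleus (edgeR adjusted p = 8.6e-10). SEMA4G had 1089.6 and 1119 CPM in thymic epithelial-like (log2 fold change 8.21 ± 0.47, edgeR adjusted p = 9.2e-12). It was 878 and 1097 CPM in TTN ABCA12 (log2 fold change 8.14 ± 0.47, edgeR adjusted p = 8.7e-12). It was 181 and 309 CPM in CHGA SST1 nuclei (log2 fold change 6.21 ± 0.49, edgeR adjusted p = 1.7e-09), against 1.72 and 5.86 CPM in the T lineage. SEMA6A, a ligand of PLXNA2 and PLXNA4, had 618 and 347 CPM, 444 and 479 CPM and 148 and 151 CPM in the same classes, against 6.59 and 2.72 CPM in the T lineage (edgeR adjusted p = 7e-10, 4.9e-10 and 2.1e-07). SEMA6D, too sparse to test, had 8 and 9 UMIs in thymic epithelial-like, 6 and 18 UMIs in TTN ABCA12 and 24 and 14 UMIs in all T-lineage nuclei. These semaphorins were near 0 in thymocytes and high in thymic epithelial-like and TTN ABCA12 nuclei of both libraries.

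Their plexins were placed as follows. PLXNB3, a receptor of SEMA5A, had 191 and 127 CPM in thymic epithelial-like (log2 fold change 6.13 ± 1.17, edgeR adjusted p = 0.00017). The level was 170.0 and 135 CPM in TTN ABCA12 nuclei (log2 fold change 6.23 ± 1.17, edgeR adjusted p = 0.00015), with 5.73 and 0 CPM in the T lineage. Receptor and ligand were thus high in the same classes. DESeq2 called PLXNB3 in neither class (adjusted p = 0.086 and 0.082). PLXNB2, a receptor of class 4 semaphorins, was high in each class with epithelial markers, at 1157 and 1296 CPM (log2 fold change 2.77 ± 0.30, edgeR adjusted p = 4.6e-08), 1218 and 902 CPM (log2 fold change 2.65 ± 0.30, edgeR adjusted p = 8.2e-08) and 1202 and 1261 CPM (log2 fold change 2.98 ± 0.30, edgeR adjusted p = 5.3e-08) in thymic epithelial-like, TTN ABCA12 and CHGA SST1 nuclei, against 192 and 188 CPM in the T lineage. PLXNA2 had 411 and 333 CPM in CHGA SST1 (log2 fold change 3.19 ± 0.60, edgeR adjusted p = 0.00016). It was 161 and 97.6 CPM in TTN ABCA12 nuclei (log2 fold change 1.54 ± 0.60, edgeR adjusted p = 0.035), against 53.0 and 45.2 CPM in the T lineage, with no call for the 67.4 and 169.9 CPM of thymic epithelial-like nuclei. The TTN ABCA12 call was lost when at most 3 UMIs of a gene were counted per nucleus (edgeR adjusted p = 0.063). It was also lost with DESeq2 size factors, with 12% of nuclei left out as doublets and without the filter on low counts (edgeR adjusted p = 0.054, 0.078 and 0.79). PLXNC1 and PLXND1 were the reverse: PLXNC1 had no UMI in thymic epithelial-like nuclei (at least 11.3-fold lower than the 164 and 135 CPM of the T lineage, edgeR adjusted p = 0.00013), and PLXND1 none either (at least 3.61-fold lower, edgeR adjusted p = 0.0098).

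Several ephrins and Eph receptors were high in thymic epithelial-like and TTN ABCA12 nuclei. EFNB1, a transmembrane ephrin, had 348 and 545 CPM in thymic epithelial-like (log2 fold change 7.97 ± 0.57, edgeR adjusted p = 1.3e-10). It was 368 and 293 CPM in TTN ABCA12 (log2 fold change 7.61 ± 0.56, edgeR adjusted p = 2.2e-10). The level was 362 and 317 CPM in CHGA SST1 nuclei (log2 fold change 7.74 ± 0.58, edgeR adjusted p = 8.6e-10), against 1.72 and 1.67 CPM in the T lineage. EFNB2, which did not pass the filter among the classes, had 0 and 3 UMIs in thymic epithelial-like, 4 and 11 UMIs in TTN ABCA12 and 3 and 9 UMIs in CHGA SST1 nuclei, and 29.8 and 36.2 CPM in the T lineage. EFNA5 was on both sides, with 1089.6 and 1027 CPM in thymic epithelial-like nuclei against 415 and 461 CPM in the T lineage (log2 fold change 1.34 ± 0.45, edgeR adjusted p = 0.015, but 0.27 by DESeq2). That log2 fold change was 0.40 without the filter on low counts (edgeR adjusted p = 0.795). DP-like nuclei alone had 990.2 and 1061 CPM. The level was 718 and 846 CPM in TTN ABCA12 nuclei, which missed the threshold (log2 fold change 1.00 ± 0.45, edgeR adjusted p = 0.066). It was nearly absent from CHGA SST1 nuclei, with 0 and 3 UMIs (ratio 0.0364, 95% counting interval 0.00749 to 0.106, edgeR adjusted p = 0.00018).

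EPHA5, an EphA receptor that binds ephrin-A ligands, had 404 and 509.8 CPM in thymic epithelial-like (log2 fold change 7.48 ± 0.61, edgeR adjusted p = 1.4e-09). It was 529 and 423 CPM in TTN ABCA12 nuclei (log2 fold change 7.64 ± 0.61, edgeR adjusted p = 9.8e-10), against 3.44 and 1.67 CPM in the T lineage. EPHA3 had 225 and 184 CPM (log2 fold change 7.81 ± 0.81, edgeR adjusted p = 5.6e-08) and 274 and 316 CPM (log2 fold change 8.50 ± 0.82, edgeR adjusted p = 1.7e-08) in these classes. EPHA7, with 0 and 2 UMIs in the T lineage, had 135 and 262 CPM and 349 and 302 CPM, with lower 95% counting bounds of the ratio of 231 and 354 (edgeR adjusted p = 1.2e-08 and 2.8e-09). EPHA4, which binds ephrins of both classes, had 124 and 149 CPM, 113 and 195 CPM and 247 and 159 CPM in thymic epithelial-like, TTN ABCA12 and CHGA SST1 nuclei (edgeR adjusted p = 6.3e-07, 3.8e-07 and 5.6e-07), and 1 and 0 UMIs in all T-lineage nuclei. EPHB2, an EphB receptor that binds ephrin-B ligands, had 202 and 127 CPM (log2 fold change 7.93 ± 0.98, edgeR adjusted p = 9.2e-07) and 198 and 130.1 CPM (log2 fold change 8.04 ± 0.98, edgeR adjusted p = 7.4e-07). CHGA SST1 nuclei also had calls for EPHA3, EPHA5, EPHA7 and EPHB2, at means of 126, 72.0, 237 and 28.1 CPM (edgeR adjusted p = 7.4e-07, 8.7e-06, 2e-08 and 0.00077). RNA of these EphA receptors was thus found in each class with epithelial markers and was near 0 in thymocytes. EFNA5 RNA was found in thymocytes and in thymic epithelial-like and TTN ABCA12 nuclei. Of the EphB receptors, EPHB6 was at 170.5 and 163 CPM in the T lineage and 179.7 and 163 CPM in thymic epithelial-like nuclei (log2 fold change 0.11 ± 0.56, edgeR adjusted p = 0.89). Summed over the 12 Eph receptors, the level was 1494 and 1529 CPM in thymic epithelial-like and 1718 and 1631 CPM in TTN ABCA12 nuclei. It was 1053 and 904 CPM in CHGA SST1 nuclei, and 182 and 171 CPM in the T lineage.

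Of the UNC5 receptors, UNC5B and UNC5C passed the filter and were called in thymic epithelial-like and TTN ABCA12 nuclei. UNC5D had no UMI in these classes, 4 and 0 UMIs in CHGA SST1 and 9 and 7 UMIs in T-lineage nuclei. UNC5C (ENSGALG00010004366, chromosome 4, 58111934 to 58357124) had 393 and 687 CPM in thymic epithelial-like (log2 fold change 6.06 ± 0.56, edgeR adjusted p = 2.8e-08). It was 567 and 525 CPM in TTN ABCA12 (log2 fold change 6.14 ± 0.56, edgeR adjusted p = 2.1e-08). The level was 593 and 190.3 CPM in CHGA SST1 nuclei (log2 fold change 5.65 ± 0.58, edgeR adjusted p = 2.6e-07), against 8.88 and 8.37 CPM in the T lineage. UNC5B had 191 and 156 CPM (log2 fold change 6.19 ± 1.15, edgeR adjusted p = 9e-05) and 208 and 191 CPM (log2 fold change 6.53 ± 1.15, edgeR adjusted p = 5.2e-05) in thymic epithelial-like and TTN ABCA12 nuclei. CHGA SST1 nuclei had 0 and 8 UMIs, a call that rests on library 2 alone (edgeR adjusted p = 0.017). Their diffusible ligand NTN1 had 0 and 0 UMIs in thymic epithelial-like, 2 and 0 UMIs in TTN ABCA12 and 6 and 15 UMIs in T-lineage nuclei. No other class had more than 1 NTN1 UMI per library, so that a source of NTN1 among the classes was not detectable at this depth. The netrin-G NTNG2, which binds LRRC4, had 279.8 and 143 CPM in CHGA SST1 (log2 fold change 6.73 ± 0.94, edgeR adjusted p = 8.6e-06). It was 124 and 156 CPM in thymic epithelial-like (log2 fold change 6.0 ± 0.92, edgeR adjusted p = 1.4e-05). It was 94.4 and 65.1 CPM in TTN ABCA12 nuclei (log2 fold change 5.25 ± 0.91, edgeR adjusted p = 6e-05). NTNG1, the netrin-G high in CD4 SP-like nuclei, had 2 and 4 UMIs in thymic epithelial-like nuclei.

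CHGA SST1 nuclei, 27 and 31 in number, also had calls for PLXNA4, SEMA5B, SEMA3C and both neuropilins. PLXNA4 (ENSGALG00010005333, chromosome 1, 2830517 to 3284954), a plexin for SEMA6A and, with neuropilins, for class 3 semaphorins, had 2123 and 301 CPM there against 7.16 and 0.628 CPM in the T lineage and none in thymic epithelial-like nuclei (log2 fold change 8.45 ± 0.85, edgeR adjusted p = 9e-08). The UMIs lay in 9 and 7 nuclei, with 51 of 129 and 12 of 38 in 1 nucleus each. SEMA5B had 279.8 and 444 CPM (log2 fold change 4.47 ± 0.82, edgeR adjusted p = 0.00022). SEMA3C had 296 and 373 CPM (log2 fold change 4.62 ± 0.80, edgeR adjusted p = 7.6e-05), with 0 and 0 UMIs of SEMA5B and 2 and 3 UMIs of SEMA3C in thymic epithelial-like nuclei. NRP2 had 872 and 325 CPM (log2 fold change 3.81 ± 0.47, edgeR adjusted p = 8.6e-07). NRP1 had 181 and 143 CPM (log2 fold change 2.14 ± 0.76, edgeR adjusted p = 0.035). SEMA3C, both neuropilins and class A plexins were thus all found in this class in both libraries. The NRP1 call was lost with at least 400 genes per nucleus (edgeR adjusted p = 0.058) and without the filter on low counts (0.54). NRP2 was also called higher in thymic epithelial-like and TTN ABCA12 nuclei, at means of 151 and 188 CPM. Without the filter on low counts both of these calls were lost (edgeR adjusted p = 0.44 and 0.11). Dendritic-like nuclei had 153 and 205 CPM of NRP1 and 204 and 82.2 CPM of SEMA3C, and macrophage-like nuclei 664 and 533 CPM of NRP2, so these members were not limited to CHGA SST1 nuclei. EPHA2, too sparse to test, had 11 and 9 UMIs here and 11 and 4 UMIs in thymic epithelial-like nuclei. Markers of several lists were found in this class, and whether they lay in the same nuclei was not tested. 9 and 10 of 14 thymic epithelial markers were found at a summed 2963 and 1983 CPM. Dendritic markers summed to 3243 and 3188 CPM with FLT3 and XCR1 at 0, B markers to 2354 and 1118 CPM, mostly EBF1, and neuroendocrine markers to 1119 and 5488 CPM. The part of these markers in the member levels was not tested. With 12% of nuclei left out as doublets the class fell below 20 nuclei in a library and gave no value.

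In macrophage-like nuclei 8 members were higher and 3 lower than in the T lineage (10.8% and 7.38% of all genes). The higher ones were 6 of the 18 receptors tested and 2 of the 12 ligands tested. Among these receptors was ROBO2, whose call rests on library 2 alone. PLXNC1 reached 1727 and 1887 CPM (log2 fold change 3.40 ± 0.46, edgeR adjusted p = 1.3e-05). PLXNB2 had 1628 and 1066 CPM (log2 fold change 2.60 ± 0.32, edgeR adjusted p = 2.2e-06). NRP2 had 664 and 533 CPM (log2 fold change 3.40 ± 0.49, edgeR adjusted p = 2.1e-05). PLXND1 had 399 and 389.7 CPM (log2 fold change 2.88 ± 0.72, edgeR adjusted p = 0.0068). That call was lost without the filter on low counts (edgeR adjusted p = 0.10). EPHB2 had 1 and 7 UMIs (log2 fold change 6.92 ± 1.14, edgeR adjusted p = 0.00016), and the ligands EFNB1 and SEMA6A 233 and 82.0 CPM and 199 and 144 CPM (edgeR adjusted p = 1.1e-05 and 2.1e-05). The members lower there were EPHB6, EFNA5 and SEMA4D, which thymic epithelial-like nuclei also held, at means of 171, 1058 and 264 CPM. In macrophage-like nuclei EPHB6 had no UMI (at least 4.37-fold lower, edgeR adjusted p = 0.0069). EFNA5 had 0 and 2 UMIs (ratio 0.0574, 95% counting interval 0.00695 to 0.208, edgeR adjusted p = 0.0024). SEMA4D had 1 and 0 UMIs (ratio 0.0748, 95% counting interval 0.00189 to 0.417, edgeR adjusted p = 0.012).

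In dendritic-like nuclei 7 members were higher and 1 lower (7.65% and 3.67% of all genes). PLXNC1 had 1047 and 884 CPM (log2 fold change 2.39 ± 0.47, edgeR adjusted p = 0.001). PLXND1 had 664 and 349 CPM (log2 fold change 3.07 ± 0.71, edgeR adjusted p = 0.0055). NRP2 had 281 and 226 CPM (log2 fold change 2.06 ± 0.55, edgeR adjusted p = 0.014). The others higher were EFNB1, SEMA3C, SEMA4G and PLXNA4, the last with 1 and 10 UMIs, of which all 10 in library 2 came from 1 nucleus. Counting at most 3 UMIs of a gene per nucleus removed the PLXNA4 and SEMA3C calls (edgeR adjusted p = 0.11 and 0.16), and with 12% of nuclei left out as doublets the EFNB1 and NRP2 calls were lost (edgeR adjusted p = 0.13 and 0.052) while PLXNA4 and SEMA3C were not tested. Without the filter on low counts the NRP2 and SEMA3C calls were lost (edgeR adjusted p = 0.40 and 0.36). EFNA5 had no UMI in dendritic-like nuclei and was at least 12.9-fold lower (edgeR adjusted p = 0.00059). Macrophage markers summed to 1072 and 534 CPM in dendritic-like nuclei against 9002 and 7137 CPM in macrophage-like nuclei, and their part in the plexin levels was not tested. B-like nuclei had 0 members higher and 2 lower than the T lineage by edgeR at adjusted p under 0.05 (4.64% and 2.59% of all genes, 7.23% in either direction), with 5 at an unadjusted p under 0.05. These were EFNA5 with 0 and 2 UMIs (ratio 0.0337, 95% counting interval 0.00408 to 0.122, edgeR adjusted p = 0.0006) and PLXNB2 at 17.1 and 52.6 CPM (log2 fold change -2.63 ± 0.54, edgeR adjusted p = 0.0023), and SEMA4D at 239.9 and 289.5 CPM gave no call.

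**Figure D5:**
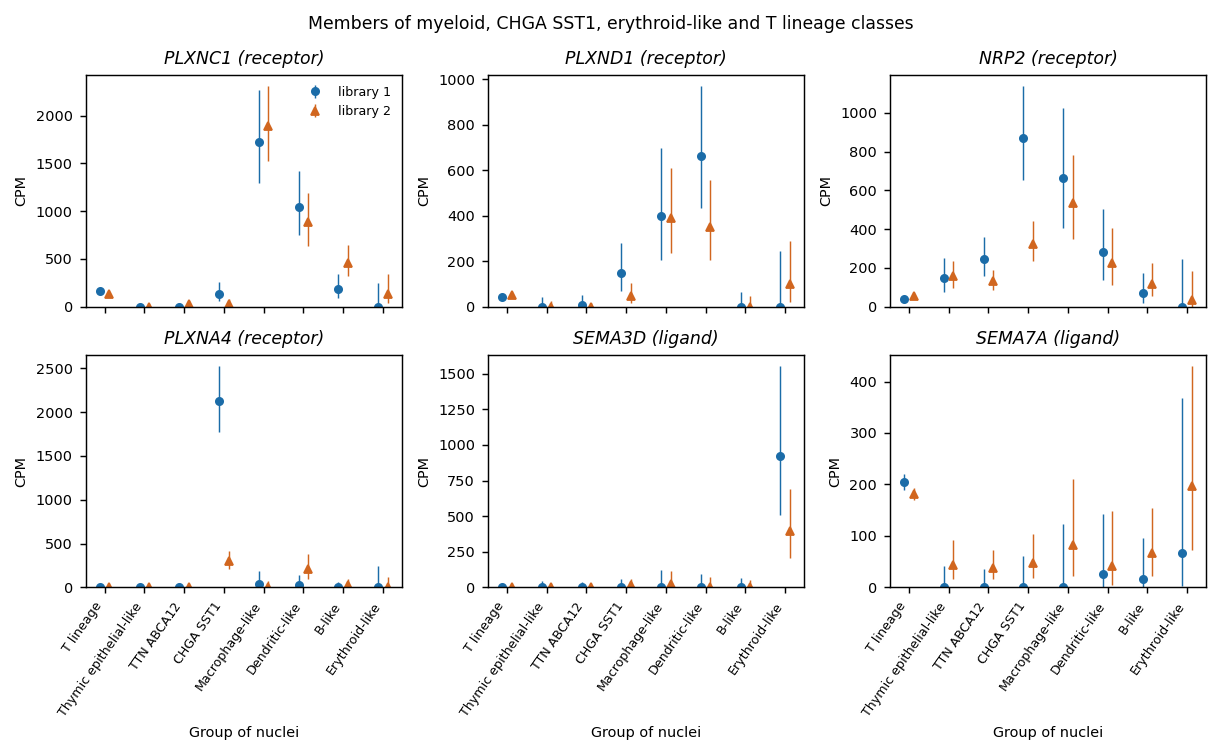
Level of 6 members in the 8 classes, in CPM on linear axes that start at 0 and differ between panels; circles are library 1, triangles library 2, and bars are exact 95% Poisson intervals, which cover counting error only. PLXNC1 and PLXND1 are high in macrophage-like and dendritic-like nuclei, PLXNA4 in CHGA SST1 nuclei with a wide gap between the libraries, and SEMA3D in erythroid-like nuclei. In each other class but the erythroid-like one, SEMA7A is below its T-lineage level.

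In erythroid-like nuclei, 27 and 29 in number, the member called was SEMA3D, a secreted class 3 semaphorin that binds neuropilins (1 higher and 0 lower by edgeR, beside 0.773% and 0.0773% of all genes). SEMA3D had 925 and 395 CPM against 1.15 and 1.26 CPM in the T lineage (log2 fold change 8.49 ± 1.26, edgeR adjusted p = 0.00065, but 0.43 by DESeq2). Its 14 and 12 UMIs came from 8 and 6 nuclei, against 4 of 4595 and 5 of 4960 T-lineage nuclei. The median depth was 477 and 933 UMIs against 648 and 804. EFNA5 was split between the libraries in this class, at 0 and 1250.4 CPM, with 18 of 38 UMIs from 1 nucleus and no call (log2 fold change 0.36 ± 0.55, edgeR adjusted p = 0.92). T-lineage markers summed to 11104 and 13326 CPM in these nuclei, with 11 and 12 of 13 found, against 21711 and 24114 CPM in the T lineage, and their part in the EFNA5 level was not tested.

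SEMA7A was lower in the classes with epithelial markers than in the T lineage. It had 204 and 181 CPM there, and 0 and 42.5 CPM in thymic epithelial-like (log2 fold change -3.40 ± 0.95, edgeR adjusted p = 0.0044). The level was 0 and 37.2 CPM in TTN ABCA12 (log2 fold change -3.43 ± 0.92, edgeR adjusted p = 0.0033). It was 0 and 47.6 CPM in CHGA SST1 nuclei (log2 fold change -3.01 ± 0.98, edgeR adjusted p = 0.021, but 0.083 without the library block). No UMI was found in these classes of library 1, and T-lineage markers in TTN ABCA12 nuclei went the same way, at 132 and 1004 CPM, while thymic epithelial-like nuclei had none of them in either library. The part of these markers in the SEMA7A level was not tested. SEMA7A gave no call in the other classes. Its means were 41.0, 33.3, 41.5 and 132 CPM in macrophage-like, dendritic-like, B-like and erythroid-like nuclei. The log2 fold changes of SEMA7A there were -2.68, -3.18, -2.86 and -1.16 (edgeR adjusted p = 0.08, 0.06, 0.075 and 0.73). Its receptor PLXNC1 was high in macrophage-like, dendritic-like, CD4 SP-like and gamma delta-like nuclei and had no UMI in thymic epithelial-like nuclei. For the ephrin-A system the ligand EFNA5 was found in DP-like and thymic epithelial-like nuclei and EphA receptors in the latter, and for the Slit system both SLIT3 and ROBO2 were found in thymic epithelial-like and TTN ABCA12 nuclei.

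The other genes of these pathways (coreceptors, cytoplasmic partners and cytoskeletal effectors, 85 listed and 75 in the files) were tested in the same fits. Among the classes 37 were tested and 33 differed, and among the groups of thymocytes 50 were tested and 38 differed, beside the 64% and 42.6% of all genes given above. Like the members, these genes were held out of clustering, so they and all genes are not like sets either. In thymic epithelial-like nuclei 20 of the 37 were higher and 12 lower than in the T lineage, beside 28.5% and 24.9% of all genes. In macrophage-like nuclei 4 of the 37 were higher and 7 lower than in the T lineage, beside 10.8% and 7.38% of all genes. In SH3RF3 CDK14 nuclei 18 of the 50 were higher and 10 lower than in DP-like nuclei, beside 19.9% and 10.3% of all genes. In CD4 SP-like nuclei 15 of the 50 were higher and 8 lower than in DP-like nuclei, beside 16% and 9.42% of all genes. FYN, the Src-family kinase of T cells and of Eph and plexin signalling, had no UMI in thymic epithelial-like nuclei and 1340 ± 37.5 CPM (SD, n = 2 libraries) in the T lineage, at least 103-fold lower (edgeR adjusted p = 2.5e-09). MET, the receptor tyrosine kinase that pairs with class B plexins, had 942 ± 17.1 CPM (SD, n = 2) in TTN ABCA12 nuclei and 1 UMI in the T lineage (ratio 7749, lower 95% counting bound 1380, edgeR adjusted p = 8.7e-12). EPS8, an actin-capping protein, had 565 ± 356 CPM in CHGA SST1 nuclei, and 1 UMI in the T lineage (ratio 5397, lower 95% counting bound 951, edgeR adjusted p = 1.4e-09). MYO10, a filopodial myosin that carries netrin receptors, had none in B-like nuclei and 412 ± 15.4 CPM in the T lineage, at least 18.5-fold lower (edgeR adjusted p = 2.9e-05).

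Within the T lineage MYO10 had 1141 ± 2.43 CPM (SD, n = 2) in DP-like nuclei and 1 UMI in NR4A3 SAMD11 nuclei (ratio 0.00647, upper 95% counting bound 0.0361, edgeR adjusted p = 5.3e-08). MICAL2, an enzyme that oxidises actin, and ABLIM1, an actin-binding protein of the netrin pathway, had 177 ± 7.63 and 167 ± 6.70 CPM in CACNA1C AKR1D1 nuclei and no UMI in DP-like nuclei, at least 88.7-fold and 82.1-fold higher (edgeR adjusted p = 6.5e-06 and 6e-05). CRMP1, a collapsin response mediator of semaphorin signals, had 10 UMIs in NR4A3 SAMD11 nuclei and none in DP-like nuclei, at least 36.6-fold higher (edgeR adjusted p = 0.0024).

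By position, 58 members were matched by symbol to RefSeq on GRCg7b, and SEMA4C was not. Chromosome 1 holds 16 of them, and neighbours there differed in where they were found. ROBO1 (96051998 to 96759720) and ROBO2 (97041297 to 97503230) lie side by side and were both high in CHGA SST1 nuclei, but ROBO2 alone was high in TTN ABCA12 nuclei. SEMA3D (8899181 to 9041982), SEMA3A, SEMA3E and SEMA3C (11250327 to 11372449) form a run in which SEMA3D was found in erythroid-like nuclei, SEMA3C in CHGA SST1 and SH3RF3 CDK14 nuclei, and SEMA3A and SEMA3E near the limit of detection. EPHA1 (77444993 to 77478565) lies near EPHB6, and had no UMI in the T lineage, where EPHB6 was present in every group, and 3 and 9 UMIs in thymic epithelial-like nuclei.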

How the data were processed

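Nuclei of 2 libraries from chicken thymus were measured by droplet single-nucleus RNA sequencing. The deposited files hold whole-number UMI counts per gene and nucleus. Per the submitters' processing notes, Cell Ranger 7.0.1, Scanpy 1.9.1 and the build GRCg7b were used, and per the labels' protocols the annotation was limited to protein-coding genes and long non-coding RNAs. The deposited files' names give CellBender, a remover of free RNA, with version and settings not given in the sources used here, so that low counts may have been lowered or set to 0. The labels' statements on kit and sequencer conflict, and none is used.

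Nuclei with at least 200 genes and at most 5% mitochondrial UMIs were kept, and the 6% with the highest doublet score were left out. Library totals as deposited were 4826743 and 6570941 UMIs. Counts scaled to 10000 per nucleus were clustered on 2000 variable genes, 30 principal components and 15 neighbours (Leiden, resolution 1, leidenalg 0.10.2), and nuclei outside the T lineage were clustered again on 1000 genes. A group took a cell type name where at least 3 markers of a list were raised, 2 more than of any other list, unless its 10 leading genes held more markers of another list than of its own. Other groups took the names of 2 leading genes. UMIs were summed per library and group of at least 20 nuclei in each library. Sums were tested with edgeR 4.0.16 (TMM scaling, filterByExpr, quasi-likelihood F tests, two-sided) and Benjamini-Hochberg adjustment over all genes tested, without the genes used for clustering. Library was a block because the groups of 1 library come from the same preparation. A call is an adjusted p under 0.05. The fit was tested on simulated data. Alternatives were DESeq2 1.42.0, its size factors, no filter, no block, 400 genes per nucleus, 12% doublets, resolutions 0.5 and 2, UMIs split at random into 2 sets (50% each), and at most 3 UMIs of a gene per nucleus, the last chosen after seeing the data.

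Members with at least 20 UMIs are given with values in both libraries, and the others with their total. Of the pathway list, the 4 genes with the largest absolute fold change in each fit are named, among those called with the same direction in both libraries. Members, lists and tests were chosen with earlier results of these data known. Positions are from RefSeq on GRCg7b.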

Additional observations from a re-analysis of the deposited data

How the results depend on the processing

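Of 89 calls among the classes, 88 were kept with DESeq2 size factors, 80 without a filter, 81 with DESeq2 and 86 with at most 3 UMIs of a gene per nucleus, and of 77 calls among the thymocyte groups 77, 69, 72 and 75. With at least 400 genes per nucleus 86 of 89 and 55 of 77 were kept and 18 of the latter lost. With 12% doublets 56 and 74 were kept, with 3 and 2 lost. At resolution 0.5, at resolution 2 and with split UMIs 44, 44 and 25 of 89 were kept, with 45, 45 and 62 giving no value, and 18, 19 and 8 of 77, with 56, 56 and 68 giving none, groups called by leading genes not being carried over to another clustering. No call reversed in any alternative that gave a value. Without the library block (replicate block), 88 of 89 and 68 of 77 calls were kept, and the members that differed over all groups were 30 among the classes and 14, in place of 16, among the thymocyte groups. With library 2 alone all 89 and 77 calls had the same direction, and with library 1 alone 87 and 75, since for ROBO2 in macrophage-like, UNC5B in CHGA SST1 and SLIT3 in CD4 SP-like and SH3RF3 CDK14 nuclei library 1 could not give one; no test is possible with 1 sum a group.

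Counts that moved by more than 1.5 times were these. Without a filter, 5 members in place of 2 were called in B-like and 4 in place of 1 in erythroid-like nuclei. In erythroid-like nuclei DESeq2 called 0, resolution 0.5 gave 2 and split UMIs 0. In dendritic-like nuclei 12% doublets and split UMIs each gave 4 in place of 8. With split UMIs 14 members were tested among the classes in place of 30 and all 14 differed, 14 being called in at least 1 class, with 7 in place of 11 in macrophage-like and 12 in place of 22 in thymic epithelial-like nuclei; fewer members passed the filter. In IQCH SLC7A10 nuclei, 400 genes per nucleus gave 0 and 12% doublets 5 in place of 3; the cause was not tested. Erythroid-like nuclei with 400 genes, and CHGA SST1 and erythroid-like nuclei with 12% doublets, fell below 20 per library and gave no value. Depth limits the small classes most, and a count of 0 there does not show absence.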
